A study of Mus musculus with 5 samples.

Results

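Cells that carried high levels of Col2a1 messenger RNA were rare in the developing mouse penis. Col2a1 encodes type II collagen, the main fibre of cartilage. A cell was counted as a member if its barcode had at least 500 detected genes, if mitochondrial transcripts made up at most 5% of its unique molecular identifiers (UMIs, the tags that count RNA molecules), and if Col2a1 reached at least 1000 counts per 1000000 UMIs of the cell (CPM). There were 88 such cells among 20845 penis barcodes under the same filter, or 0.422% (exact 95% binomial interval 0.339% to 0.520%, counting error only). The penis libraries 1, 2 and 3 gave 35 of 7304, 32 of 7528 and 21 of 6013 barcodes. The rule read Col2a1 itself, so the Col2a1 values below are a description of the choice and not a result.

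The study sequenced single cells from 5 libraries. The 3 penis libraries came from wild-type males at postnatal day 6, with the dissection centred on the glans, where the baculum (penis bone) forms. The single forelimb and single hindlimb libraries came from male embryos at embryonic day 15 by the labels. The labels give the strain of all 5 samples as C57BL/6N, whereas the methods of the study name C57BL/6J. No allele or treatment separated the groups, so tissue, age and preparation cannot be told apart in any penis against limb comparison. The labels did not tie a penis library to a mouse or litter. The study took its 3 males from fewer litters than males, so penis libraries may share a litter. Whether the forelimb and hindlimb libraries shared embryos is not given in the sources used here, so p-values measure the spread between these libraries.

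Most of the skeleton forms on a cartilage template. Chondrocytes first lay down type II collagen and aggrecan under Sox9, Sox5 and Sox6. They then stop dividing, pass through a prehypertrophic stage marked by the ligand Indian hedgehog (Ihh) and the parathyroid hormone receptor Pth1r, and enlarge into hypertrophic cells that secrete type X collagen (Col10a1). Runx2 and Sp7 act in late chondrocytes and in osteoblasts, the cells that deposit bone matrix proteins such as bone sialoprotein (Ibsp) and osteopontin (Spp1). The proximal part of the mouse baculum forms through cartilage in this way.

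The sequences just upstream of Col10a1 and Matn1 are shown as 2 examples from genes far higher in the members than in other penis cells. They were chosen after a search for SOX, RUNX and TATA motifs, among the windows that held one. Each is the RefSeq reference of build GRCm38.p6, 250 bases that end just before the annotated start, on the gene's strand, and capitals mark motif letters.

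Col10a1, chr10:34389731-34389980, plus strand: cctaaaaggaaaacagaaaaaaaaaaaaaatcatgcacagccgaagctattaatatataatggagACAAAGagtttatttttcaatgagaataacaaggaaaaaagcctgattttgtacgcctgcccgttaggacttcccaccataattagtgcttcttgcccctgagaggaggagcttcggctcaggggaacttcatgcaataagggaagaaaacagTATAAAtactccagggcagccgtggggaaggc
Matn1, chr4:130944135-130944384, plus strand: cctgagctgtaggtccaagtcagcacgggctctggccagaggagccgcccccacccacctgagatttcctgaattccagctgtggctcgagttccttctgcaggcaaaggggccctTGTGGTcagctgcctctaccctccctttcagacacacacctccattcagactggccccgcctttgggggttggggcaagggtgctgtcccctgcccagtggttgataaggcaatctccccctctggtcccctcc

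In the Col10a1 window the capitals are the SOX motif ACAAAG, 185 bases before the start, and the TATA box TATAAA, 32 bases before it. In the Matn1 window they are the RUNX motif TGTGGT, 134 bases before the start. Searched on both strands of 32851 RefSeq windows of this length, ACAAAG or CTTTGT occurred in 16.5% and TGTGGT or ACCACA in 14%, and TATAAA on the gene's strand occurred in 7.59%. A match of letters is a description and not a measured binding site. Of 22 member genes looked up, 16 had a window, with 22 windows in all, and Col2a1 was not among them. In 12 of these 22 windows none of the motifs was found, those of Ihh, Ibsp and Acan included.

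The members differed widely in depth. They held a median of 15605, 2668 and 23336 UMIs in penis libraries 1, 2 and 3, with a range of 752 to 93772, and the other penis cells held 10303, 9670.5 and 9023. Col2a1 reached 22200, 25193 and 15329 CPM in the summed members of the 3 libraries and 12.8, 13.6 and 11.0 CPM in the other penis cells. The members together held 35554 of 38569 Col2a1 UMIs of the filtered penis cells, or 92.2%. A further 1785 penis cells (8.60% of the others) carried a Col2a1 UMI without reaching the threshold. The lowest members stood at 1085, 1001 and 1071 CPM and the highest cells below the threshold at 986, 950 and 992 CPM. Just below it, 29 other cells lay between 800 and 1000 CPM.

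**Figure D1:**
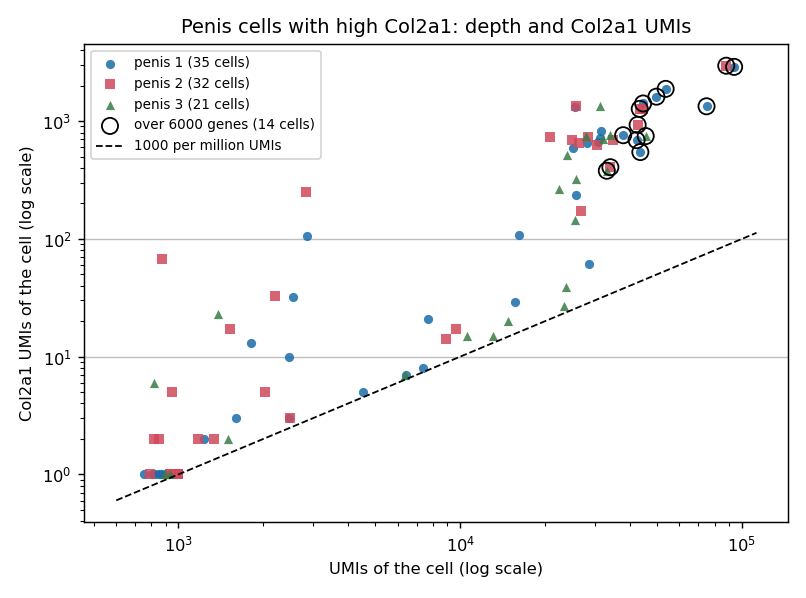
Each point is a penis cell with high Col2a1 (88 cells), with the UMIs of the cell on the x axis and its Col2a1 UMIs on the y axis, both on log scales, and colour and shape for the library. The dashed line is 1000 Col2a1 CPM, grey lines mark 10 and 100 Col2a1 UMIs, and rings mark the 14 cells with over 6000 genes, all of which lie above 100 Col2a1 UMIs.

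A shallow cell passed the threshold with few molecules. A single Col2a1 UMI sufficed in 14 members and 2 UMIs in 6 more. The members are therefore described in 3 ranges of Col2a1 UMIs, which were set after the values were seen. There were 30 cells with 1 to 9 UMIs (12, 13 and 5 by library), with a median of 969 UMIs in all. Between 10 and 99 Col2a1 UMIs there were 17 cells (6, 5 and 6), with a median of 8918 UMIs. At 100 or more there were 41 cells (17, 14 and 10), with a median of 31248 UMIs. Depth and Col2a1 count rose together across these ranges, though the depths overlapped. They ran from 752 to 7376, 871 to 28539 and 2838 to 93772 UMIs. Between 2028 and 2859 UMIs, cells with 1 to 9 Col2a1 UMIs carried 0 to 3 of the 9 chondrocyte markers named below. Cells with 10 or more carried 7 to 9 at that depth. Cells with 7 and 8 Col2a1 UMIs but 6412 and 7376 UMIs carried 6 and 8. Another with 7 Col2a1 UMIs and 6355 UMIs carried 4. Cells with 13 and 23 but 1811 and 1379 UMIs carried 2 each. Yet a cell with 68 Col2a1 UMIs but 871 UMIs carried 6, and a cell with 15 and 13029 UMIs carried 2. The parts of depth and Col2a1 count in the shares below were not tested.

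The cartilage label held for the cells with many Col2a1 UMIs. For most of those with 1 to 9, which were shallow, the other markers did not bear it out. Of 9 other chondrocyte markers (Sox5, Sox6, Col11a1, Mia, Col9a1, Col9a2, Col9a3, Acan and Matn4), every cell with at least 100 Col2a1 UMIs carried 6 or more. In the range of 10 to 99 UMIs, 13 of 17 cells carried at least 5. In the range of 1 to 9 UMIs, 2 of 30 carried at least 5, and 15 carried none of the 9. Levels per UMI were lower there too. Summed over these 30 cells, Acan, Col9a1, Sox9 and Ihh stood at 91.9, 368, 36.8 and 0 CPM. In the highest range they stood at 3265, 2634, 668 and 258 CPM. Aggrecan (Acan), the large proteoglycan that swells cartilage, had a UMI in 3, 15 and 41 cells of the lowest, middle and highest ranges. Matrilin 4 (Matn4), a bridging protein of the matrix, had a UMI in 1, 5 and 40 cells. Col10a1 had a UMI in 3, 7 and 34 cells, and Ihh in 0, 3 and 37 cells. Of the cells with 1 to 9 Col2a1 UMIs, 3 carried at least 5 of 10 white blood markers and 1 carried at least 5 of 10 endothelial markers.

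**Figure D2:**
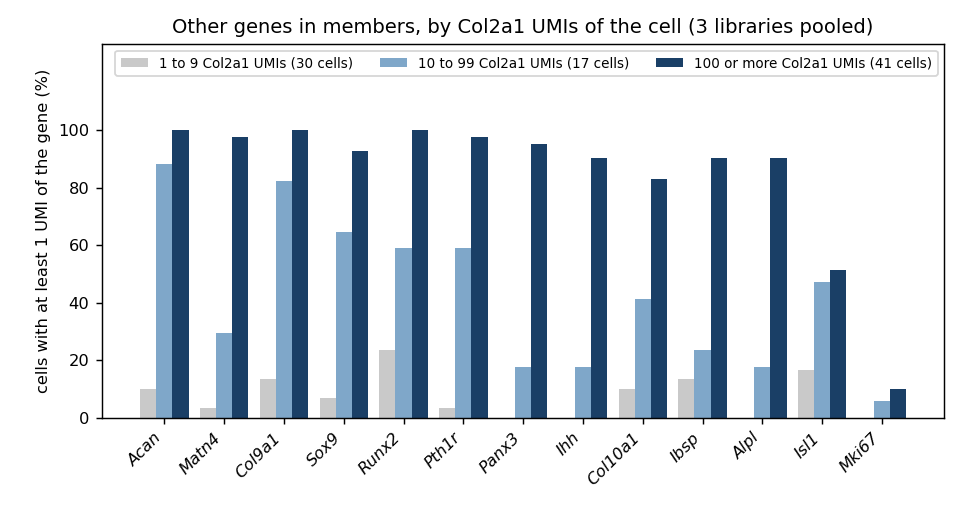
Bars give the percentage of cells with at least 1 UMI of each gene among members with 1 to 9 (30 cells), 10 to 99 (17 cells) and 100 or more (41 cells) Col2a1 UMIs, with the 3 penis libraries pooled. Acan, Matn4, Col9a1 and Sox9 were each found in at least 38 of the 41 cells of the highest range and in at most 4 of the 30 of the lowest.

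Among the members, 14 exceeded 6000 genes, the upper limit that the study set for its penis cells and that is read here as a limit on detected genes (8, 4 and 2 cells in penis libraries 1, 2 and 3). That is 15.9% of the members against 5.77% of the other penis cells. All 14 had at least 100 Col2a1 UMIs, with 379 to 2954 each, so such a limit would take 14 of the 41 members with that many. Of the 14, 1 cell of library 3 carried all 10 glial markers and 1 of library 2 carried 6 of 10 keratinocyte markers. Whether these were mixed barcodes was not tested. Between the members above and below 6000 genes, with library as a block, 0 of 4681 genes were called in either direction (0.0%, edgeR quasi-likelihood test, adjusted p under 0.01 and a fold above 2), 234 had an unadjusted p under 0.05, and DESeq2 called 5. Acan stood at 3019, 3822 and 1818 CPM in the members above the limit and 2344, 3663 and 2059 in those below. Sox9 stood at 795, 380 and 966 CPM above it and 450, 684 and 580 below. Col10a1 stood at 3242, 10874 and 38.1 CPM above it and 3270, 6087 and 1432 below. For Acan, Sox9 and Col10a1 neither group was higher in every library. Penis library 3 entered this comparison with only 2 cells above the limit, and the cell with the glial markers held 45523 of their 78651 UMIs.

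Against the other penis cells of their own library, the members were higher for cartilage matrix, late cartilage and bone genes and lower for most markers of the other cell types. These values come from the contrast the rule used, so they are a description, and the counts are no evidence about the members. The limits of the edgeR fit serve here only to count genes, and no p is given. By these limits 1052 of 18680 genes were higher in the members (5.63%) and 1753 were lower (9.38%), and the median over all genes was -0.39 (log2). Col2a1 was left out of the fit. Levels are CPM of the summed cells, and differences are log2 fold changes ± SE over 3 libraries. Sums weigh each cell by its depth. Of the 744737, 512119 and 399184 member UMIs by library, 657502, 473625 and 301812 came from the 41 cells with at least 100 Col2a1 UMIs. Member levels thus describe mainly those cells.

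Of 20 other cartilage matrix genes, 19 were higher and 0 lower, with a median difference of 6.53. Matn1, a matrilin of mature cartilage, stood at 400.1, 386.6 and 240.5 CPM in the members of libraries 1, 2 and 3 and at 0.157, 0.161 and 0.0317 CPM in other cells (11.78 ± 0.28). Acan stood at 2743, 3728 and 2012 against 12.8, 14.2 and 13.3 CPM (7.98 ± 0.20). Every member library lay above every library of other cells for both genes. In this comparison the groups did not overlap for 63.4% of all genes tested. The gap was also wide for Comp, a matrix protein that binds collagen (9.21 ± 0.21), for Snorc, a membrane proteoglycan of chondrocytes (9.64 ± 0.21), and for Hapln1, the link protein that ties aggrecan to hyaluronan (7.34 ± 0.18). Epyc, a small proteoglycan of growing cartilage, had 0 UMIs in the 88 members, against 5.80, 5.43 and 4.90 CPM in other penis cells, and so was at least 2.997-fold lower, taking 3 counts over the group as the floor.

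All 9 chondrocyte transcription factors in the fit were higher, with a median of 3.70. Sox9, the factor that starts the chondrocyte program, stood at 654, 560 and 656 CPM against 97.9, 98.8 and 107 (2.93 ± 0.17). Mef2c, which promotes hypertrophy, stood at 1406, 1058 and 1202 CPM against 114, 115 and 120 (3.70 ± 0.17).

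Of 11 hypertrophic cartilage genes, 10 were higher. Col10a1 stood at 3254, 8031 and 1157 CPM against 2.19, 5.76 and 1.17 (10.64 ± 0.21). Ihh stood at 295, 207 and 123 CPM against 0.146, 0.138 and 0.111 (10.92 ± 0.30). A UMI of Ihh was found in 40 of 88 members (45.5%) and in 31 of 20757 other penis cells (0.149%). Penis cells with at least 5 of 10 white blood markers should lack Ihh, had medians of 6986 to 8898 UMIs by library, and carried it in 0 of 700 cells (exact upper limit 0.526%). Panx3, a channel of prehypertrophic cells, stood at 567, 547 and 626 CPM against 0.494, 0.853 and 1.14 (9.82 ± 0.24). Vegfa, the signal that draws vessels into hypertrophic cartilage, was the gene of this list that was not called, with 63.1, 85.9 and 77.7 CPM in members and 114, 117 and 132 in other cells. Mmp13, the collagenase of the last hypertrophic cells, stood at 125, 68.3 and 5.01 CPM in members and had a UMI in only 7 of the 88. Of its 93 UMIs in library 1, a single cell held 86.

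Of 14 osteoblast genes, 10 were higher. Ibsp stood at 4500, 4948 and 3763 CPM against 9.51, 9.06 and 3.08 (9.70 ± 0.20). Of its 3351 UMIs in the members of library 1, a single cell held 1471. Spp1 stood at 5630, 4720 and 1453 CPM against 81.1, 95.2 and 54.4 (5.82 ± 0.17). Few cells held much of it. Of its 4193 UMIs in the members of library 1, single cells held 1951 and 919. A single cell held 1105 of the 2417 in library 2, and another 330 of the 580 in library 3. Bglap, which encodes osteocalcin, the protein of mature osteoblasts, was scarce on both sides, with 4.03, 3.91 and 2.51 CPM in members and 4.39, 1.5 and 4.98 in other cells. Dmp1, a matrix protein best known from osteocytes, stood at 252, 91.8 and 0 CPM in members and at most 1.04 in other cells.

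Genes for making and exporting matrix were higher as well. Of 15 genes for collagen folding and secretion, 11 were higher and 0 lower, among them the prolyl hydroxylase subunit P4ha2 (4.10 ± 0.20) and the lysyl hydroxylase Plod2 (3.25 ± 0.19). Of 13 genes for chondroitin sulfate synthesis, 8 were higher and 0 lower, with the sulfate transporter Slc26a2 first (3.70 ± 0.22). Of 10 glycolysis and hypoxia genes, 6 were higher and 0 lower, among them Pgk1 (3.21 ± 0.18) and Ldha (2.93 ± 0.17), both enzymes of sugar breakdown. Of 10 proteases and inhibitors, 2 were higher and 3 lower, and the inhibitor Timp1 stood at 326, 260 and 303 CPM against 30.9, 28.7 and 28.9.

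Growth plate signalling genes split, with 10 of 20 higher and 3 lower. Pth1r stood at 1179, 926 and 1092 CPM against 29.6, 27.6 and 28.1 (5.53 ± 0.19). Its ligand gene Pthlh had 0 UMIs in the members and stood at 6.34, 6.17 and 6.17 CPM in other penis cells, so it was at least 3.441-fold lower. Ptch1, the hedgehog receptor that is itself induced by hedgehog signal, stood at 142, 168 and 208 CPM against 32.4, 30.7 and 33.7 (2.71 ± 0.20). Fgfr3, a receptor that slows chondrocyte growth (3.80 ± 0.21), and Frzb, a secreted WNT antagonist (5.89 ± 0.23), were also higher.

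Of 10 cell division genes, 2 were higher and 4 lower. The higher genes were the cell cycle inhibitors Cdkn1a (1.62 ± 0.19) and Cdkn1c (2.53 ± 0.15). Mki67, found in dividing cells, stood at 2.69, 1.95 and 42.6 CPM in members and 68.7, 68.4 and 76.2 in other cells. Top2a, a topoisomerase of dividing cells, stood at 4.03, 1.95 and 110 CPM in members and 103, 94.8 and 108 in other cells. For both genes penis library 3 stood apart from the other two member sums, and for Top2a its members overlapped the other penis cells. These UMIs lay in few cells. A single cell of library 3 held 11 of its 17 Mki67 UMIs and 24 of its 44 Top2a UMIs and carried all 10 glial markers, and a second held 6 and 19.

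Isl1, a factor of the genital tubercle, was lower in the members than in other penis cells. It stood at 43.0, 43.0 and 42.6 CPM in members and 182, 184 and 190 in other cells (-1.79 ± 0.22). Penis white blood cells, taken as a reference with little Isl1 expected, held 32.8, 46.5 and 57.3 CPM, so the members lay above the reference in library 1 and below it in libraries 2 and 3. After each cell was thinned to 2000 UMIs, which left out 27 of the 88 members, 23 of them with under 10 Col2a1 UMIs, the expected share with an Isl1 UMI was 11.1% ± 2.4 (SD, n = 3 libraries) in members, 30.5% ± 0.62 in other cells and 4.80% ± 0.51 in the white blood reference. Unthinned, the pooled shares were 38.6%, 67.0% and 15.4%. Isl1 stood at 202 CPM in members with 1 to 9 Col2a1 UMIs and at 94.8 and 30.7 CPM in the middle and highest ranges. By its summed level, Isl1 in the members was not told apart from the white blood reference. By share, thinned or not, it was found more often in members than in that reference. The part of background in these values was not tested.

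The vitamin D receptor Vdr stood at 76.5, 89.8 and 45.1 CPM against 10.4, 9.0 and 10.6 (3.14 ± 0.27). Srd5a2, a reductase of steroids, was lower, at 9.40, 9.76 and 12.5 CPM against 57.0, 58.8 and 56.5 (-2.16 ± 0.34). Counts over the receptor list are not reported here. Of 14 genes for position and limb identity, 0 were higher and 7 lower, with Shox2 lowest (-3.12 ± 0.26).

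Keratinocyte, white blood, endothelial and smooth muscle markers were scarce in the member sums. Of 10 markers each, 10 endothelial, 10 white blood, 8 keratinocyte, 8 smooth muscle and pericyte, 6 glial and 5 mesenchyme genes were lower, and 0, 0, 0, 0, 0 and 2 were higher. Among tendon and red blood markers, 2 of 5 and 4 of 6 were lower and 0 were higher. The summed keratinocyte list stood at 125, 291 and 158 CPM in members against 1763 to 1911 in other cells, the white blood list at 10.7, 66.4 and 60.1 against 376 to 422, and the endothelial list at 25.5, 87.9 and 32.6 against 895 to 958. The smooth muscle and pericyte list stood at 48.3, 66.4 and 135 CPM against 478 to 532. Cldn5 and Ecscr, defining genes of endothelium, were at 0 in all 3 member sums. Mesenchyme markers were present throughout, at 3468, 3429 and 3512 CPM against 4001 to 4132. Penis library 3 stood apart in the red blood list, with 11155 CPM in its members, above the 4510 of its other cells, while libraries 1 and 2 had 177 and 191 against 6054 and 6695. A cell of library 3 with 15 Col2a1 UMIs carried 5 of the 6 red blood markers. Library 3 also stood apart in the glial list, with 298 against 90.0 and 109. The 2 largest drops outside the lists that left any UMI were those of the fibroblast matrix gene Dpt (-6.60 ± 0.39) and the surface antigen gene Psca (-6.58 ± 0.46).

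**Figure D3:**
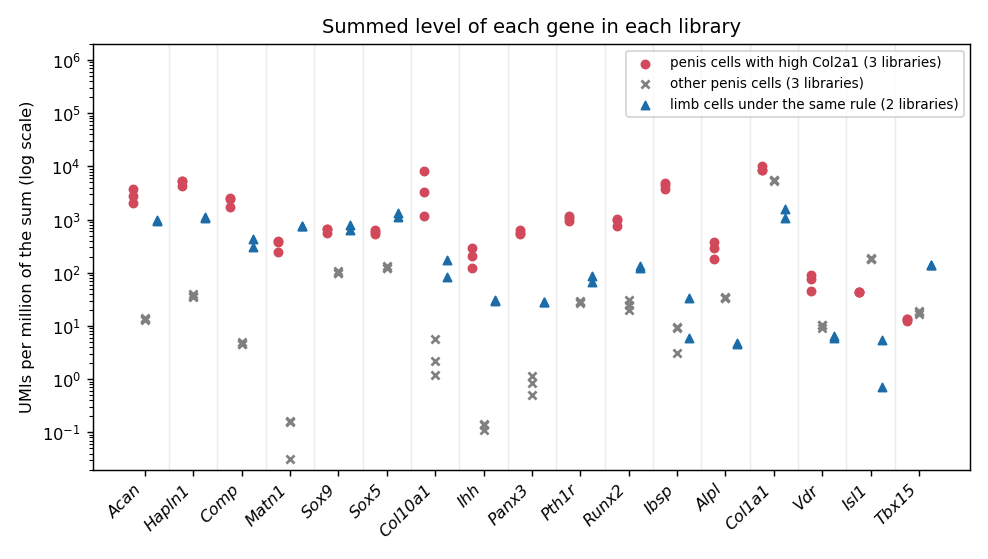
Points give CPM of the summed cells for 17 genes on a log axis, with 1 point per library, for the penis cells with high Col2a1, the other penis cells and the limb cells chosen by the same rule. Ihh, Panx3, Col10a1 and Ibsp stand far above the other penis cells and above limb in every library, Sox9 is level with limb, and Isl1 lies between the other penis cells and limb.

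The 41 cells with at least 100 Col2a1 UMIs differed widely in several late genes. Spp1 ran from 0 to 44769 CPM (median 531) and Ibsp from 0 to 28914 (median 1865). Col10a1 ran from 0 to 24489 CPM with a median of 1053, and 34 of the 41 cells had a UMI of it. Ihh ran from 0 to 1008 CPM (median 193, 37 cells with a UMI) and Pth1r from 0 to 2439 (median 1274, 40 cells). Runx2 was found in all 41 cells, from 62.0 to 3498 CPM (median 853). By the 5 hypertrophic markers Col10a1, Ihh, Pth1r, Mmp13 and Panx3, 40 of the 41 cells carried at least 3, and the remaining cell carried 2. By 8 osteoblast markers, 39 of the 41 carried at least 4. Of these 8, Runx2, Sp7, Ibsp and Spp1 are also in the list of hypertrophic cartilage genes. Col1a1, another of the 8, had a UMI in 93.4% of other penis cells. Bglap was scarce in the members, as given above, and Dmp1 was at 0 in library 3. Prehypertrophic and hypertrophic transcripts, and those shared by late cartilage and bone, were thus found in the same barcodes. In the white blood reference Ibsp stood at 0.971 to 1.54 CPM, Runx2 at 27.3 to 40.3 CPM and Col1a1 at 894 to 1162 CPM.

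Ordered by Col10a1, the cells showed opposing trends, which are given as descriptions over 41 cells that share libraries, depth and composition. A limit of 1000 Col10a1 CPM left 21 cells above it (10, 8 and 3 by library) and 20 below (7, 6 and 7), with median depths of 27899 and 31278 UMIs. Sox9 had medians of 195 CPM above the limit and 791 below (Spearman's rho with Col10a1 -0.61). The collagen chaperone Serpinh1 had medians of 868 and 2815 (rho -0.70), the bone gene Ifitm5 23.0 and 330 (rho -0.68), and Panx3 352 and 789 (rho -0.53). In the other direction, Bmp6, a bone morphogenetic protein of hypertrophic cartilage, had medians of 559 above the limit and 126 below (rho 0.69). Ibsp had medians of 4085 and 433 (rho 0.63), Cdkn1a 310 and 59.5 (rho 0.55), Acan 3935 and 2269 (rho 0.54), and Ihh 282 and 117 (rho 0.42).
Within libraries 1, 2 and 3 the rho of Sox9 was -0.67, -0.66 and -0.31, that of Bmp6 0.80, 0.71 and 0.28, and that of Ibsp 0.68, 0.64 and 0.51. Panx3 gave -0.51, -0.76 and 0.050, and Ihh 0.39, 0.49 and 0.082, so neither trend was seen in library 3, which held the fewest cells. The genes named were picked from list genes with a UMI in at least 30 of the 41 cells. Mmp13 had a UMI in 5 of the 41 cells, all of them above the Col10a1 limit.

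**Figure D4:**
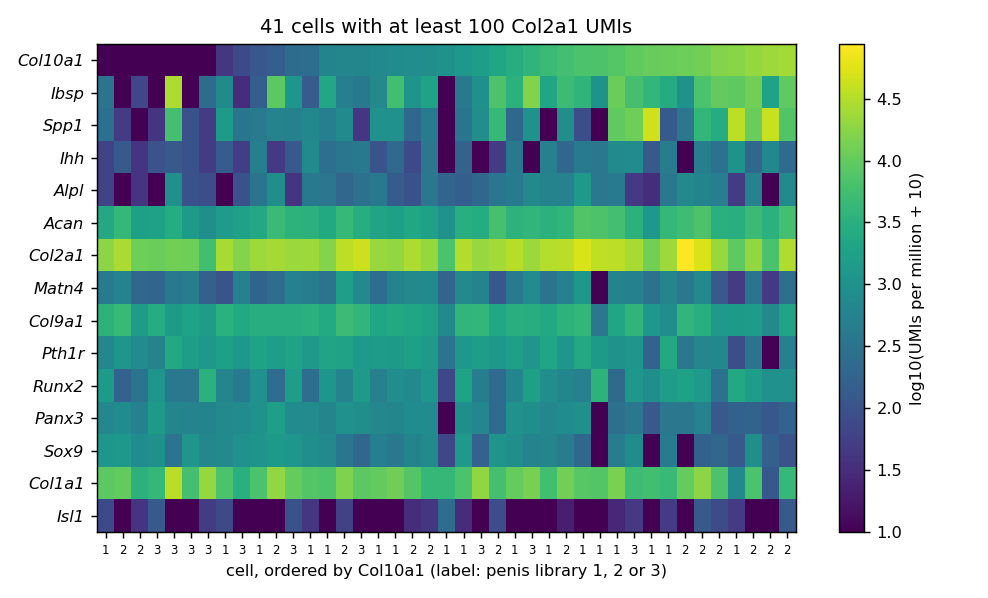
Columns are the 41 penis cells with at least 100 Col2a1 UMIs, ordered from low to high Col10a1 and labelled by library, rows are 15 genes, and colour gives log10(CPM + 10). From left to right Col10a1 runs from 0 to 24489 CPM, Ibsp tends to brighten and Sox9 and Panx3 tend to darken, while Acan, Col2a1 and Col9a1 stay bright throughout.

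The same rule was applied to the limb libraries, where cartilage is plentiful, to ask how the penis cells differed from limb cartilage cells chosen alike. It took 1393 of 17031 forelimb and 1750 of 16802 hindlimb barcodes (8.18% and 10.4%). The contrast between tissues was not used by the rule, so it was tested, on UMIs summed per library, 3 penis against 2 limb libraries, with the forelimb and hindlimb as a single group and Col2a1 left out. By the quasi-likelihood test of edgeR, with p-values adjusted over all genes by the Benjamini-Hochberg method, 938 of 8809 genes were higher in penis (10.6%) and 667 lower (7.57%) at an adjusted p under 0.01 and a fold above 2. The median over all genes was -0.026 (log2). The forelimb and hindlimb cells had medians of 4679 and 5582.5 UMIs, between penis library 2 and penis libraries 1 and 3, and fewer carried late markers, with an Ihh UMI in 5.38% and 7.14% and a Col10a1 UMI in 3.52% and 2.46% of the forelimb and hindlimb cells.

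Late cartilage and bone genes were higher in the penis cells. Of 11 hypertrophic cartilage genes tested, 10 rose and 0 fell (median 4.07), against 10.6% and 7.57% of all genes. They include Mmp13 (3.89 ± 0.61, adjusted p 0.0012), which stood at 125, 68.3 and 5.01 CPM in penis against 6.11 and 6.25 in limb, so that penis library 3 lay below both limbs. Of the 93 Mmp13 UMIs of penis library 1, a single cell held 86. In the like cells described below Mmp13 did not pass where it was tested, and with a Col10a1 UMI its sign turned (-0.084). Of 12 osteoblast genes, 11 rose and 0 fell (median 3.42), and 5 genes (Alpl, Ibsp, Runx2, Sp7 and Spp1) are counted in both lists. The 11 include Dmp1, at 252, 91.8 and 0 CPM in penis against 0.838 and 0.164 in limb, so that penis library 3 lay below both limbs. Ibsp stood at 4500, 4948 and 3763 CPM in penis libraries 1, 2 and 3 against 33.9 in forelimb and 6.00 in hindlimb (8.10 ± 0.73, adjusted p 5.68e-05). A single cell held 1471 of the 3351 Ibsp UMIs of penis library 1, and 2 cells held 747 and 501 of the 1502 of library 3. Alpl, the phosphatase that starts mineral formation, stood at 286, 375 and 185 CPM against 4.67 and 4.77 (6.22 ± 0.35, adjusted p 8.23e-06). Penis and limb libraries did not overlap for either gene, nor for 63.9% of all genes tested.

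Col10a1 stood at 3254, 8031 and 1157 CPM in penis against 174 and 82.0 in limb (5.34 ± 0.80, adjusted p 0.00099). Where both sides carried an Ihh UMI, Col10a1 did not pass (2.11 ± 0.60, adjusted p 0.0253). Panx3 stood at 567, 547 and 626 CPM against 28.0 and 27.8 (4.68 ± 0.19, adjusted p 2.55e-06). Runx2 stood at 1012, 746 and 967 CPM against 125 and 133 (3.12 ± 0.20, adjusted p 1.02e-05). Col1a1, the main collagen of bone and fibrous tissue, stood at 8508, 8652 and 10096 CPM against 1600 and 1088 (3.06 ± 0.19, adjusted p 9.89e-06). Other penis cells held 5342 to 5587 CPM of Col1a1 and penis white blood cells 894 to 1162, and the part of free RNA in this difference was not tested.

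Cartilage matrix genes differed less, and in both directions. Of 20 tested, 10 rose and 2 fell (median 1.03). In the like cells described below, 6 rose and 5 fell with 100 Col2a1 UMIs (median 0.34). With Ihh and with Col10a1, 7 rose and 3 fell (medians 0.54 and 0.81). Hapln1 stood at 5320, 5204 and 4294 CPM in penis against 1120 and 1075 in limb (2.48 ± 0.16, adjusted p 1.03e-05), and Comp rose likewise (2.93 ± 0.25, adjusted p 4.03e-05). Matn4 stood at 404, 426 and 383 against 648 and 518 CPM (-0.22 ± 0.18, adjusted p 0.359) and did not pass the test. Epyc had 0 UMIs in penis and stood at 226 and 174 CPM in limb, at least 107.5-fold lower in penis. Cytl1, a secreted protein of cartilage, stood at 21.5, 1.95 and 7.52 against 425 and 524 CPM (-5.01 ± 0.40, adjusted p 2.77e-05).

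Of 9 chondrocyte transcription factors, 2 rose and 1 fell. Sox9 stood at 654, 560 and 656 CPM in penis and 635 and 802 in limb (0.11 ± 0.17, adjusted p 0.647), so the groups overlapped. Sox5 stood at 540, 580 and 631 against 1101 and 1315 CPM (-0.74 ± 0.16, adjusted p 0.0052) and missed the fold limit. Mef2c rose, from 234 and 232 CPM in limb to 1406, 1058 and 1202 in penis (2.70 ± 0.19, adjusted p 1.61e-05). In the like cells described below, 2, 1 and 0 of 9 factors rose with 100 Col2a1 UMIs, Ihh and Col10a1, and 0 fell. Mef2c thus did not pass where both sides carried a Col10a1 UMI.

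Of 21 growth plate signalling genes, 7 rose and 4 fell. Pth1r rose, at 1179, 926 and 1092 CPM against 88.4 and 68.0 (4.07 ± 0.22, adjusted p 7.33e-06), while Pthlh, at 0 in penis and 24.4 and 22.1 CPM in limb, was at least 12.73-fold lower. Ihh stood at 295, 207 and 123 CPM against 30.5 and 29.0 (3.16 ± 0.33, adjusted p 0.000129). Where both sides carried a Col10a1 UMI, as described below, Ihh did not pass and the sign turned (-0.093 ± 0.27, adjusted p 0.852). Wnt5b rose (3.56 ± 0.27, adjusted p 2.24e-05), and the BMP receptor Bmpr1b fell, from 446 and 493 CPM in limb to 44.3, 48.8 and 17.5 in penis (-3.29 ± 0.28, adjusted p 4.03e-05). Of 10 cell division genes, 1 rose (Cdkn1a) and 4 fell. Mki67 stood at 2.69, 1.95 and 42.6 CPM in penis and 117 and 165 in limb (-3.19 ± 0.60, adjusted p 0.0032), with penis library 3 apart from the other penis libraries. Top2a, with 4.03, 1.95 and 110 against 189 and 273 CPM, did not pass (-2.57 ± 0.77, adjusted p 0.0258).

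Among nuclear receptors, Vdr stood at 76.5, 89.8 and 45.1 CPM against 5.99 and 6.57 (3.83 ± 0.29, adjusted p 2.17e-05). Vdr was also low in other penis cells, at 9.0 to 10.6 CPM. Thra, Thrb and Esr1 passed too, but in the like cells described below Thra did not pass by any of the 3 choices and Thrb turned sign in all 3 (-0.034, -0.94 and -1.27, none past the threshold). For Esr1 the groups overlapped, with 9.76 CPM in penis library 2 against 8.27 and 12.3 in limb.

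Of 11 position and limb identity genes, 1 rose and 3 fell. Isl1 stood at 43.0, 43.0 and 42.6 CPM in penis and 0.719 and 5.34 in forelimb and hindlimb (4.01 ± 0.58, adjusted p 0.000779), beside 182 to 190 CPM in other penis cells and 0.238 and 2.52 in other limb cells. Penis white blood cells held 32.8 to 57.3 CPM of Isl1 and those of the limbs 0.106 and 0.495, so the penis level was within that of the reference, and the part of free RNA in this difference was not tested. Tbx15, a factor of limb and skull cartilage, fell to 13.4, 13.7 and 12.5 CPM from 141 and 140 (-3.09 ± 0.24, adjusted p 2.26e-05). Hoxd11 and Shox2, which pattern the limb bones, fell as well (-1.52 ± 0.28, adjusted p 0.0028, and -1.57 ± 0.30, adjusted p 0.0036). Tbx5 and Pitx1, which differed between the forelimb and hindlimb libraries themselves, did not pass.

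Chondroitin sulfate synthesis gave 2 of 13 higher and collagen folding and secretion 5 of 15, against 10.6% of all genes. Proteases and inhibitors gave 4 of 7 and glycolysis and hypoxia 3 of 8, with 0 lower in each list. In the like cells described below (100 Col2a1 UMIs, Ihh and Col10a1), chondroitin sulfate synthesis gave 0 of 12 higher each time and 1, 1 and 0 lower. Collagen folding and secretion gave 1, 2 and 1 of 15 higher, and glycolysis and hypoxia 0, 1 and 0 of 8. Proteases and inhibitors gave 3 of 6, 3 of 7 and 2 of 7, with 0 lower in these lists. Of all genes, 8.67%, 5.21% and 3.49% were higher there. Timp1 stood at 326, 260 and 303 CPM in penis against 61.6 and 35.6 in limb (2.92 ± 0.27, adjusted p 6.96e-05). Of the marker lists of other types, 3 of 10 mesenchyme, 1 of 2 keratinocyte (Fxyd3), 1 of 3 glial (Cdh19) and 1 of 4 tendon genes rose, of which Cdh19 did not pass in any choice of like cells and turned sign with a Col10a1 UMI (-0.069), and 1 mesenchyme (Pdgfra) and 2 tendon genes (Scx and Tnmd) fell. White blood, endothelial, smooth muscle and red blood markers gave 0 calls of 3, 2, 2 and 4 tested (edgeR's test), with 1, 1, 0 and 0 of them at an unadjusted p under 0.05. The penis libraries were not alike in red blood markers. The summed list stood at 177, 191 and 11155 CPM in penis libraries 1, 2 and 3 and at 8792 and 8377 in forelimb and hindlimb. In each choice of like cells, 4 of 4 red blood markers tested were lower in penis, against 2.59% to 7.08% of all genes.

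Some of the widest differences lay outside the lists. Pcp4, a calmodulin-binding protein, stood at 189, 225 and 253 CPM in penis and 2.04 and 1.31 in limb (7.37 ± 0.29, adjusted p 2.55e-06). Ramp1, a partner of calcitonin-family receptors, stood at 175, 172 and 173 CPM against 4.91 and 2.47 (5.90 ± 0.30, adjusted p 5.7e-06). Foxp2, a forkhead factor, stood at 2.69, 3.91 and 0 CPM in penis against 447 and 699 in limb (-7.56 ± 0.42, adjusted p 7.33e-06). Genes of embryonic red blood cells (Hbb-y and Hba-x) and mast cells (Cma1 and Cpa3) were at 0 in the penis members and at 40.4 to 240 CPM in the limb cells.

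Because few limb cells carried Ihh or Col10a1, the test was repeated, after the data had been seen, on cells chosen to be more alike. With at least 100 Col2a1 UMIs on both sides (41 penis cells against 154 forelimb and 212 hindlimb cells), 700 of 8076 genes rose (8.67%) and 572 fell (7.08%). With an Ihh UMI on both sides (40 against 75 and 125 cells), 417 of 8009 rose (5.21%) and 307 fell (3.83%). With a Col10a1 UMI on both sides (44 against 49 and 43 cells), 244 of 6994 rose (3.49%) and 181 fell (2.59%). Ihh is not read from the comparison that it chose, nor Col10a1 from its own. The penis cells were deeper than the limb cells in each choice. With 100 Col2a1 UMIs, the 17, 14 and 10 penis cells by library held 657502, 473625 and 301812 UMIs. The 154 forelimb and 212 hindlimb cells held 1817984 and 2759489. A fixed number of UMIs was thus a lower level per UMI in penis than in limb cells, and the part of depth in these comparisons was not tested.

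Most, but not all, of the bone genes tested were higher in penis in each of the 3 comparisons of like cells. Osteoblast genes gave 10 of 11, 9 of 12 and 8 of 12 higher for the 100-UMI, Ihh and Col10a1 choices, with 0 lower. Hypertrophic cartilage genes gave 9 of 10, 7 of 10 and 6 of 10 higher with 0 lower. Ihh was left out of the count for the Ihh choice and Col10a1 out of that for the Col10a1 choice. Ibsp differed by 8.91 ± 0.35, 6.46 ± 0.35 and 4.26 ± 0.46 (adjusted p 1.4e-07, 2.18e-07 and 0.00018). With a Col10a1 UMI, its levels were 5401, 5985 and 3803 CPM in penis and 499 and 138 in limb. Alpl differed by 5.26 ± 0.33, 4.04 ± 0.40 and 3.58 ± 0.42 (adjusted p 3.58e-06, 2.26e-05 and 0.00032). Runx2 differed by 2.28 ± 0.23, 1.57 ± 0.26 and 1.10 ± 0.20 (adjusted p 4.82e-05, 0.0012 and 0.0039), and Panx3 by 2.98 ± 0.21, 1.94 ± 0.25 and 1.43 ± 0.22 (adjusted p 6.47e-06, 0.00017 and 0.0015). The differences in Ibsp, Alpl, Runx2 and Panx3 were thus smallest where both sides carried Col10a1.

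Col1a1 differed more than in all cells of the rule (3.06 ± 0.19), with 3.84 ± 0.24, 4.43 ± 0.30 and 3.48 ± 0.26 (adjusted p 3.58e-06, 8.93e-07 and 2.4e-05). Pcp4 differed by 7.23 ± 0.36 with 100 Col2a1 UMIs (adjusted p 9.56e-07). It stood at 219, 243 and 379 CPM in penis with 0 limb UMIs under the Ihh choice, and at 216, 244 and 269 CPM with 1 forelimb and 0 hindlimb UMIs under the Col10a1 choice. Spp1 passed with 100 Col2a1 UMIs and with Ihh but not with Col10a1 (1.59 ± 0.37, adjusted p 0.0156). Of the cartilage genes, Hapln1 differed by 1.65 ± 0.15, 1.2 ± 0.23 and 1.12 ± 0.15 (adjusted p 2.4e-05, 0.0032 and 0.00066).

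Foxp2 stayed lower in penis by all 3 choices (adjusted p 2.18e-05, 9.75e-06 and 1.61e-05), with at most 2 UMIs in any penis library and 151 to 492 CPM in limb, as did Tbx15 (-3.52 ± 0.33, -2.81 ± 0.39 and -3.13 ± 0.39, adjusted p 2.86e-05, 0.0003 and 0.00047). Bmpr1b, Cytl1 and Pdgfra also stayed lower in all 3. Epyc remained at 0 UMIs in the penis cells of each choice and at 206 to 746 CPM in limb. Isl1 again passed with 100 Col2a1 UMIs and with Ihh (3.07 ± 0.50 and 3.83 ± 0.67, adjusted p 0.001 and 0.0017), and with Col10a1 against 1 UMI in each limb library (adjusted p 0.0054), but with 100 Col2a1 UMIs it stood at 25.9, 38.0 and 29.8 CPM in penis, below penis white blood cells in each library.

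**Figure D5:**
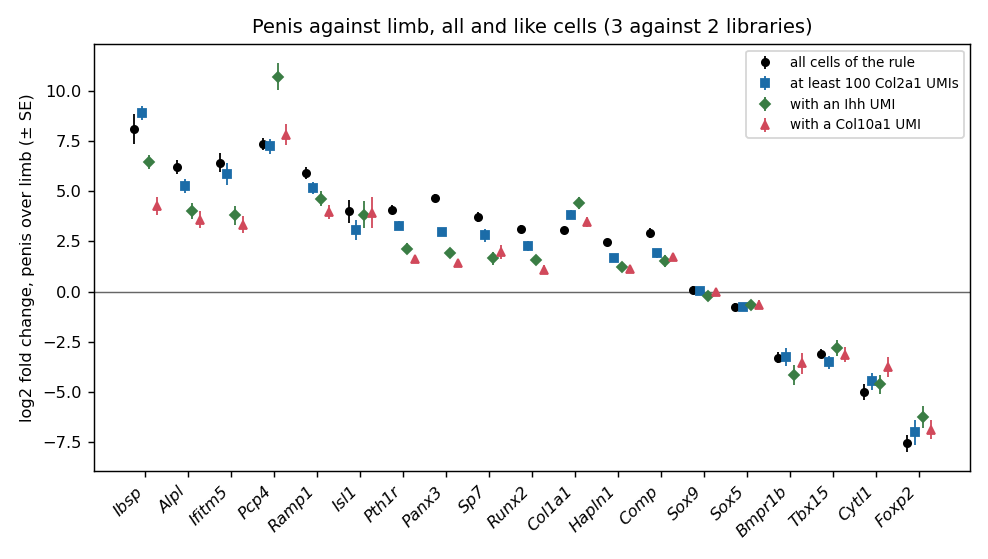
Points give the log2 fold change of penis over limb, with bars of ± 1 SE, for 19 genes in all cells of the rule and in 3 choices of like cells, 3 penis against 2 limb libraries. Ibsp, Alpl, Ifitm5, Panx3 and Runx2 lie nearer to 0 in cells with a Col10a1 UMI than in all cells, and above it in each, Sox9 lies near 0 throughout, and Foxp2, Cytl1 and Tbx15 stay below 0. For Pcp4 the limb sums, and for Foxp2 the penis sums, hold 3 UMIs or fewer in some choices, so those points depend on the prior count of the fit.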

How the data were processed

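Single-cell libraries were made on the 10x platform, and the authors deposited raw UMI counts per gene and barcode, made with Cell Ranger 7.0.0 against the mouse build mm10 per the labels. Library totals ran from 70554067 to 162335993 UMIs over 84440 barcodes. From the deposited counts, UMIs of the chosen cells were summed per library in Python 3.11.15 and tested with edgeR 4.0.16 (quasi-likelihood, TMM, filterByExpr, Benjamini-Hochberg) in R 4.3.3, with library as a block within penis, and with DESeq2 1.42.0 as an alternative. Calls needed an adjusted p under 0.01 and an absolute log2 fold change above 1. For a gene with no UMI in a group, a fold is printed only as a bound that takes 3 counts in that group as its floor. Differences of summed UMIs are per cell set, so composition and level per cell cannot be told apart.

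Genes named are those of 20 fixed lists, plus, per comparison, the 10 largest fold changes in each direction with the same direction in every library and at least 50 counts per 1000000 UMIs (CPM) in the higher group, leaving out predicted genes with Gm or Rik names. Results for 1 listed gene are not reported here. The members and lists were chosen with earlier results of these data known. Shares carry exact (Clopper-Pearson) 95% intervals in the tables, which cover counting error only, and thinned shares are exact expectations at 2000 UMIs per cell. Symbols shared by 2 identifiers, such as Aldoa, were not merged and carry no value in the lists. Scrublet marked 2 of 20845 penis barcodes and 0 members as doublets, which is too few for the caller to have worked, so no doublets were removed. Among the members with at least 100 Col2a1 UMIs, 1 carried at least 5 keratinocyte markers and 1 at least 5 glial markers. Both exceeded 6000 genes. Penis libraries shared 20 to 37 barcodes, and 1 member barcode was found in another penis library. Penis and limb libraries shared 54 to 88, with 1 and 2 member barcodes of penis library 1 also in forelimb and hindlimb. The limb libraries shared 203. On simulated counts for the penis against limb comparison (8303 genes), edgeR recovered 100% of genes changed by 2 or 3 on the log2 scale, with 2 false calls. For members above and below 6000 genes (4352 genes) it recovered 91.8% and 100%, with 3 false calls. These simulations gave every gene the same dispersion (0.0228 and 0.0557) and no library effect. Only genes with at least 5 expected counts in the smallest sum were changed. The rates thus do not hold for scarcer or more variable genes.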

Additional observations from a re-analysis of the deposited data

How the results depend on the processing

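The number of members, 88, became 190 at a Col2a1 threshold of 500 CPM, 55 at 2000, 49 at 5000 and 58 with at least 10 Col2a1 UMIs. Against other penis cells, the 2805 calls became 1578 with at most 6000 genes and 456 with cells thinned to 2000 UMIs, and 1639 to 2574 when a penis library was left out, with 1639 without penis replicate 1. The split of 1052 higher and 1753 lower became 1088 and 1031 with DESeq2 and 1145 and 1638 with DESeq2 size factors. Without the replicate block there were 2855 calls. Above against below 6000 genes, the 0 calls became 36 with no filter on low counts, 5 with DESeq2 and 2 in thinned cells, and stayed at 0 without the replicate block and without any library. Penis against limb, the 1605 calls became 995 with at most 6000 genes, 724 with an Ihh UMI, 425 with a Col10a1 UMI, 160 in thinned cells and 2433 with no filter (1103 higher and 1330 lower), and 517 to 1786 without a library (729 without penis replicate 1, 643 without the forelimb and 517 without the hindlimb, where the lone limb library is assumed to vary like the penis libraries). No paired analysis was possible because each limb gave 1 library, so penis and limb share fewer than 2 replicate numbers. Of penis against limb results for named genes under an alternative, 1195 of 1431 kept direction and side of the threshold, 207 no longer passed, 11 newly passed and 18 changed sign. Within penis these were 2240 of 2456, 213, 0 and 3.

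The sign changes within penis were Grem1 (-1.08 at 5000 CPM, -1.05 with at least 100 Col2a1 UMIs) and Dlx5 (-0.59 in thinned cells). Penis against limb with a Col10a1 UMI they were Ihh (-0.093), Cdh19 (-0.069), Fgfr3 (-0.20), Mmp13 (-0.084), Thrb (-1.27), Sox9 (-0.020) and Matn4 (0.48). With an Ihh UMI they were Fgfr3 (-0.12), Thrb (-0.94), Sox9 (-0.22) and Matn4 (0.031), and with at least 100 Col2a1 UMIs Thrb (-0.034) and Matn4 (0.33). Sox9 also stood at -0.0047 at 5000 CPM, -0.11 with at most 6000 genes, -0.56 in thinned cells, -0.018 with no filter and -0.060 without forelimb replicate 1, and ranged from -0.060 to 0.23 when a library was left out, with 0.23 without hindlimb replicate 1. The causes were not tested. The choices by 100 Col2a1 UMIs, Ihh and Col10a1 were added after the data were seen. Removal of called doublets was not run, since the caller had not worked. The 30 members with 1 to 9 Col2a1 UMIs were shallow, and only 2 of them carried at least 5 of the 9 other chondrocyte markers. The 2 limb libraries limit the penis against limb test.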
